A study of Homo sapiens with 6 samples.

Results

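Ephrins and Eph receptors, semaphorins with their plexin and neuropilin receptors, Slits with their Robo receptors, and netrins with DCC and the UNC5 receptors are the main families of axon guidance cues. They were followed here in KNS42, an established line of pediatric glioblastoma (GBM) cells, upon depletion of the RNA-binding protein MSI1. The genes are all protein-coding rows of the expression table whose symbol belongs to these families, which gave 69 of 58174 genes (of which 19799 are protein-coding). The mRNA-seq compared cells transfected with siRNAs directed at MSI1 (siMSI1, 3 libraries) with cells that received control siRNA (siC, 3 libraries), each harvested after 72 h. All libraries came from the same parental line grown in serum-containing medium. Knockdown with an siRNA pool is transient and partial, and the labels do not say whether the 3 libraries of a group came from separate cultures, so the p-values measure the spread between these libraries only, which may be technical. The study asked how MSI1 depletion alters mRNA abundance in GBM cells.

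Guidance cues steer growing axons and migrating cells by attraction or repulsion. Ephrins sit on the cell surface and bind Eph receptor tyrosine kinases of neighbouring cells, with A-type ephrins anchored by a lipid and B-type ephrins spanning the membrane, and both partners can signal. Semaphorins are secreted (class 3) or membrane-bound (classes 4 to 7) and signal through plexins, for which neuropilins serve as co-receptors of the secreted class. Secreted Slits act on Robo receptors, and netrins act on DCC, neogenin and UNC5 receptors. Many of these proteins are also known from the migration and invasion of glioma cells and from the tumor vasculature.

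Expression is given as FPKM, the reads of a gene scaled to its length and to the reads of the library, so that levels of different genes can be compared per length. The siC libraries held 14448513 to 18024080 reads on genes and the siMSI1 libraries 13087025 to 14700593, and no library repeated another, since even the closest pair within a group gave a chi-square per degree of freedom of 3.55. The targeted gene checked the labels: MSI1 read 63.7, 61.9 and 66.9 FPKM in the siC libraries against 12.1, 12.3 and 11.2 FPKM in the siMSI1 libraries, which left 18.5% of the siC mean. The difference between groups was tested with limma after a log2 transform of FPKM + 0.1, for the 15069 genes whose mean reached 0.5 FPKM. A gene was called at an adjusted p of at most 0.01, adjusted by Benjamini-Hochberg over the whole set of tested genes, and fold changes are siMSI1 over siC on the log2 scale, where the added 0.1 makes the change of low genes appear smaller. By markers the cells held SOX2, NES and VIM, while OLIG2 and S100B had no read in any library, and the 4 oligodendrocyte, 4 immune and 4 endothelial markers summed to at most 0.534 FPKM in any library for each list. CDH5 and PECAM1, endothelial markers named here after their values were seen, had at most 3 and 1 reads per siC library but 9 to 22 and 5 to 8 reads per siMSI1 library, and lay below the filter for testing. The rest of the endothelial list did not rise with them. VWF had 20 to 37 reads per siC library and 14 to 21 reads per siMSI1 library, and CLDN5 had at most 1 read in any library.

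Of the 69 genes, 41 reached the mean of 0.5 FPKM and were tested, and 28 did not. Among the latter, EPHA6, SEMA3D and DCC had no read in any library, which allows for up to 3 reads each. EPHA8, EPHB6, SEMA3E, ROBO4, UNC5A and UNC5D had at most 3 reads in every library, and 19 others lay between this floor and the filter. The highest level was that of the B-type ephrin EFNB2, with a mean of 47.6 FPKM over the 6 libraries. It was followed by the plexins PLXND1 at 29.99 FPKM and PLXNB2 at 21.8 FPKM, and by the secreted semaphorin SEMA3A at 19.3 FPKM.

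**Figure D1:**
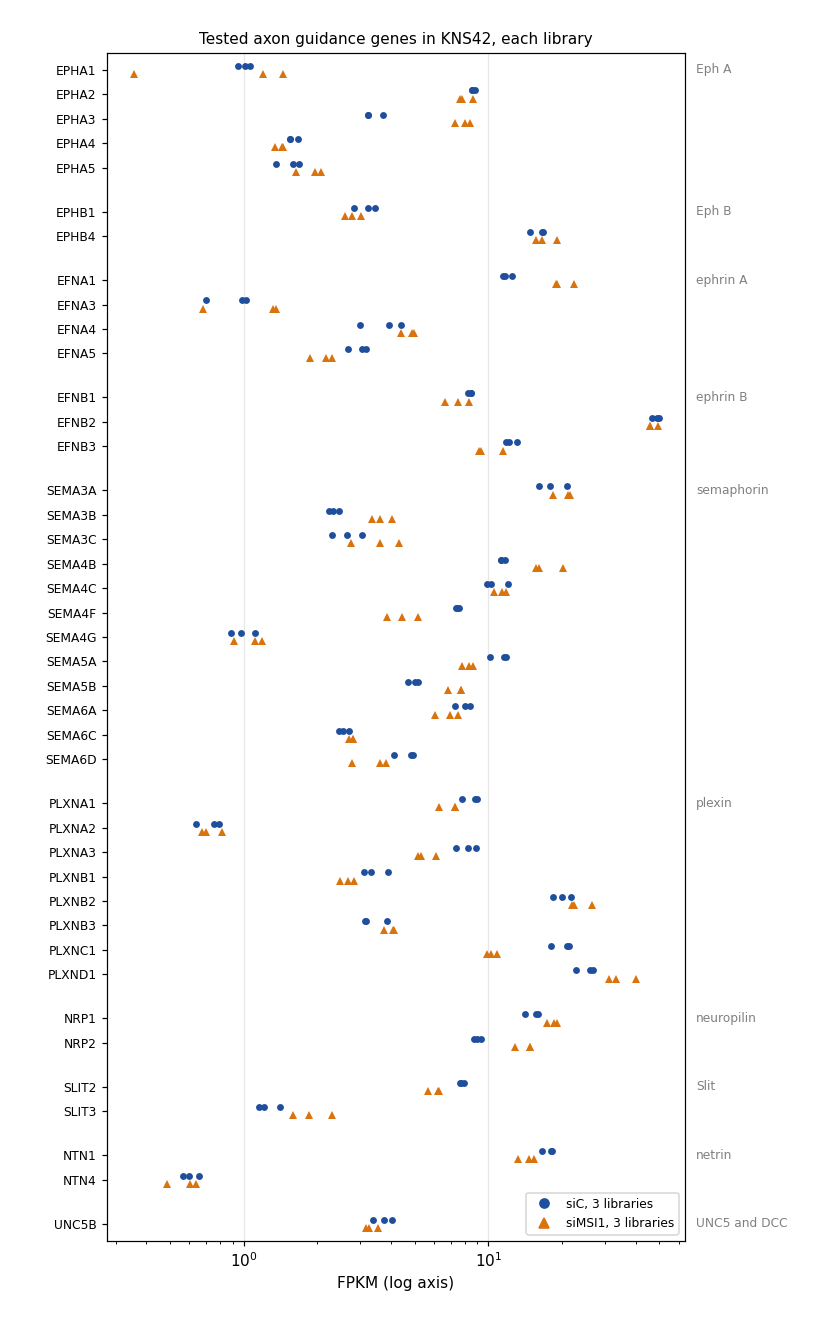
FPKM of the 41 tested axon guidance genes on a log axis, with a point for each library (blue circles, siC, triangles, siMSI1) and the family on the right. EPHA3 and EFNA1 show triangles to the right of all circles and PLXNC1 and SEMA4F triangles to the left, while EFNB2, the highest gene, overlaps between the groups.

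Upon MSI1 depletion, 6 axon guidance genes rose and 3 fell. The receptor EPHA3 rose most, to 2.34 times its siC mean, and the ligand EFNA1, the co-receptor NRP2 and the semaphorins SEMA3B, SEMA4B and SEMA5B rose as well. The plexin PLXNC1 fell most, to 51.3% of its siC mean, together with the semaphorin SEMA4F and the plexin PLXNA3. These 9 genes are 22.0% of the 41 tested, where 13.1% of the 11365 tested protein-coding genes were called (11.0% of all 15069 tested genes). By direction, 6.01% of the tested protein-coding genes were called higher and 7.09% lower, as against 6 and 3 of the 41. Called were 5 of 23 tested ligands (4 higher, 1 lower) and 4 of 18 tested receptors (2 higher, 2 lower). The difference from the background was not tested. Less RNA of a gene in each cell and fewer cells that express it cannot be told apart in these bulk libraries.

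The count of 9 depended on the libraries used. It was 3 without siC replicate 1, 4 without siC replicate 2, 4 without siC replicate 3, 5 without siMSI1 replicate 1 and 5 without siMSI1 replicate 2, and it remained at 9 without siMSI1 replicate 3, where EFNB3 replaced SEMA3B. Calls over all tested genes fell as well, from 1655 to 517, 842 and 800 without siC replicate 1, 2 and 3. They were 814 and 885 without siMSI1 replicate 1 and 2, and 1603 without siMSI1 replicate 3. EPHA3, EFNA1 and PLXNC1 were past the threshold in each of the 16 alternative fits, and NRP2 in 15. SEMA5B passed in 11, SEMA4F in 10, SEMA4B in 9, SEMA3B in 8 and PLXNA3 in 7 of them. The direction of these 9 genes turned in none of the fits.

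**Figure D2:**
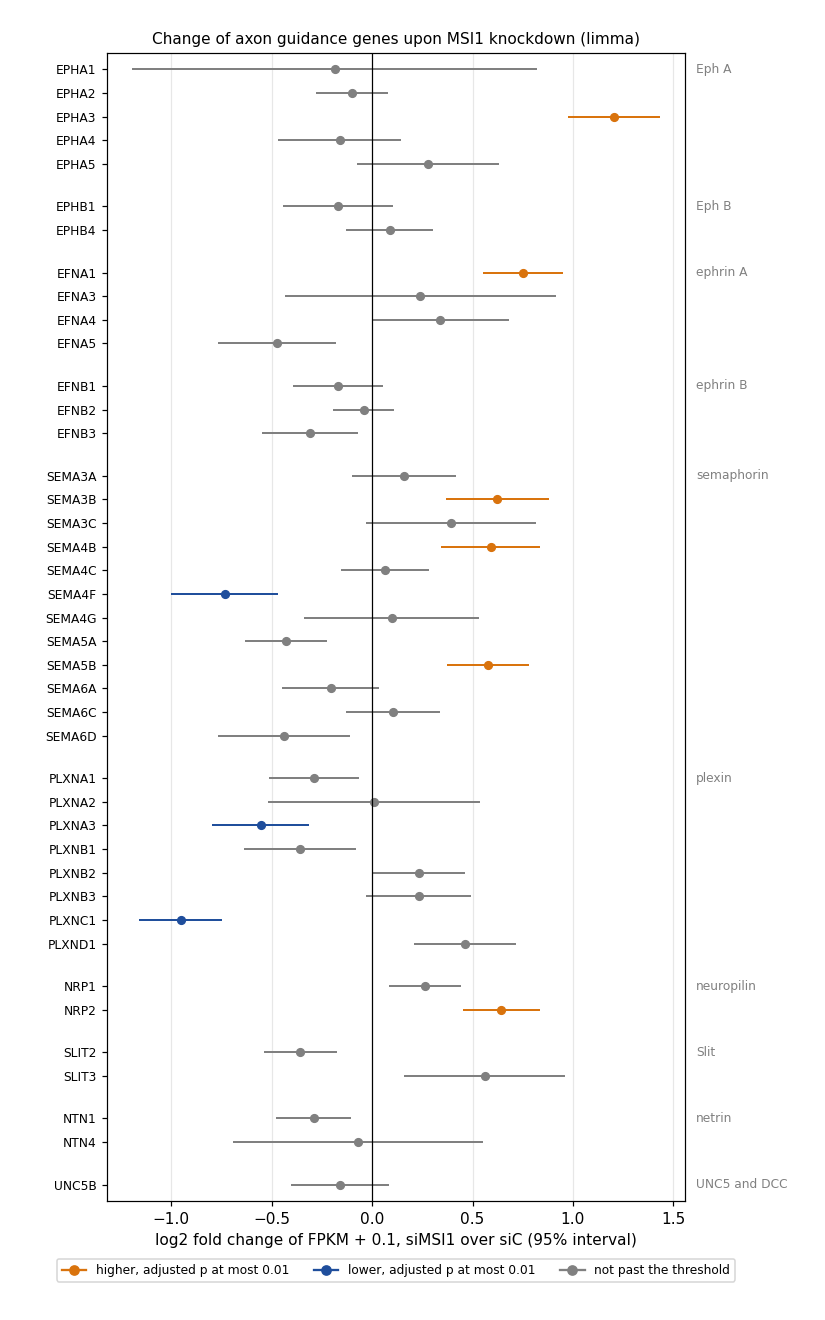
Log2 fold change of FPKM + 0.1 (siMSI1 over siC, limma) with its 95% interval for the 41 tested genes, grouped by family. The 6 genes called higher (orange) lie between 0.58 and 1.20 and the 3 called lower (blue) between -0.95 and -0.55, among 32 genes (grey) that did not pass.

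The genes whose change held in every fit were EPHA3, EFNA1 and PLXNC1, and the 300 bases around their transcription starts (250 before, 50 after) are shown because they differ in what they hold. The sequences are those of RefSeq on GRCh38.p14, all on the plus strand, with capitals marking the GC box (GGGCGG or its reverse complement CCGCCC).
EPHA3, chr3:89107371-89107670: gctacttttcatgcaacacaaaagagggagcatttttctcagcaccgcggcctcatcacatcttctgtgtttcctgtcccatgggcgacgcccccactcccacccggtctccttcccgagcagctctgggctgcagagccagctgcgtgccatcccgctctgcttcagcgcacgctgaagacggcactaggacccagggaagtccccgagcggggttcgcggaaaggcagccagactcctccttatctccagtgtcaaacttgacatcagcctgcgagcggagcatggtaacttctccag
EFNA1, chr1:155127626-155127925: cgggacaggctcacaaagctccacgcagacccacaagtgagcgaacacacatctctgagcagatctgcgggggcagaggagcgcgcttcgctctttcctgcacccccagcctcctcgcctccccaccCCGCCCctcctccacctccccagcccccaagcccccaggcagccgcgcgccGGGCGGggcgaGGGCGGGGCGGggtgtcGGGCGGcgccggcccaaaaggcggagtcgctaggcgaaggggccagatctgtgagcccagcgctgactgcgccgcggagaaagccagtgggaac
PLXNC1, chr12:94148327-94148626: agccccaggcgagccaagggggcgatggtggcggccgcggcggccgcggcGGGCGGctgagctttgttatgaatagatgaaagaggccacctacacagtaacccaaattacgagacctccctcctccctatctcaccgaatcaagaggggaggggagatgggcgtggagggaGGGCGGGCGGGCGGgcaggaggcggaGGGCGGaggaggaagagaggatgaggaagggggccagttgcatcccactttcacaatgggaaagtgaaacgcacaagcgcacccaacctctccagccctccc
The EFNA1 and PLXNC1 promoters each held 5 GC boxes, some of which overlap in PLXNC1 and EFNA1, and that of EPHA3 held none. The share of G and C was 59.7% in EPHA3, 71.7% in EFNA1 and 64% in PLXNC1, with 17, 28 and 20 CpG. None of these windows held TATAAA or CCAAT on either strand. Of all 35116 RefSeq promoters of this length, 45.0% held a GC box, 11.5% TATAAA and 34.6% CCAAT. Among the 91 promoters listed for the axon guidance genes, 66 held a GC box, 3 TATAAA and 28 CCAAT, with a median of 21 CpG as against 14 over all promoters. PLXNC1 has a further promoter in RefSeq, at chr12:94262369-94262668, with 1 GC box. A match of letters is a description of the window and not a binding site.

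EPHA3, a receptor tyrosine kinase for A-type ephrins that has been studied in glioblastoma, lies at chr3:89107621-89482134 (GRCh38, with this and all gene positions from GENCODE release 44). Its level was 3.23, 3.71 and 3.21 FPKM in the siC libraries and 8.41, 7.99 and 7.33 FPKM in the siMSI1 libraries, from 308 to 827 reads per library. The groups did not overlap. The log2 fold change was 1.20 (SE 0.0965, adjusted p = 0.000366, limma), and the adjusted p was at most 0.00307 over the alternative fits. EPHA3 thereby came close in siMSI1 to EPHA2, the A-type receptor with the highest level over all libraries. EPHA2 was at 8.78, 8.56 and 8.56 FPKM in the siC libraries and 7.81, 7.69 and 8.67 FPKM in the siMSI1 libraries, and its groups overlapped (log2 fold change -0.10, 95% interval -0.27 to 0.07, adjusted p = 0.374). EPHA2 made up 53.0% of the summed FPKM of the A-type receptors in siC and 39.6% in siMSI1.

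The remaining A-type receptors were low. EPHA1, EPHA4 and EPHA5 had siC means of 1.01, 1.58 and 1.54 FPKM and none was called. EPHA1, named here after its values were seen, was at 1.06, 0.946 and 1.01 FPKM in siC but at 1.20, 0.355 and 1.44 FPKM in siMSI1, where the middle value came from 22 reads. Its log2 fold change was -0.19, and 0.36 without siMSI1 replicate 2. Among the B-type receptors, EPHB4, known for its role in vessel formation, was at 16.5, 14.8 and 16.8 FPKM upon control siRNA, as against 16.5, 15.7 and 19.0 FPKM upon MSI1 depletion. Its groups overlapped, with a log2 fold change of 0.09 (95% interval -0.13 to 0.30, adjusted p = 0.532). EPHB1 was not called either, and EPHB2, EPHB3 and EPHB6 were not tested.

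EFNA1, a lipid-anchored ligand best known as a partner of EPHA2, lies at chr1:155127876-155134899. It was at 11.5, 11.7 and 12.5 FPKM in the siC group, while the siMSI1 group gave 19.0, 19.1 and 22.4 FPKM. All siMSI1 libraries lay above all siC libraries. The log2 fold change was 0.75 (SE 0.0840, adjusted p = 0.00100, limma), and the adjusted p stayed at or under 0.00782 in the alternative fits. EFNA3 and EFNA4 lie next to EFNA1 on chromosome 1, and neither was called (log2 fold changes 0.24 and 0.34, adjusted p = 0.587 and 0.128). EFNA5, a ligand that binds EPHA3, was at 3.17, 3.05 and 2.67 FPKM in the siC libraries and 2.30, 2.17 and 1.87 FPKM in the siMSI1 libraries. This difference of -0.47 (SE 0.125) separated the groups but did not pass the threshold (adjusted p = 0.0295). EFNA3, EFNA4 and EFNA5 were named after their values were seen.

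EFNB2, a membrane-spanning ligand of EPHB4, was at 48.7, 49.5 and 46.7 FPKM upon control siRNA, as against 49.5, 45.5 and 45.9 FPKM upon MSI1 depletion. With 2662 to 3998 reads per library its interval was narrow (log2 fold change -0.04, 95% interval -0.19 to 0.11, adjusted p = 0.673). EFNB3 was at 12.1, 11.8 and 13.1 FPKM in siC and lower in each siMSI1 library, at 9.16, 9.30 and 11.5 FPKM, which did not pass (log2 fold change -0.31, adjusted p = 0.0596). Called were 1 of 5 tested A-type receptors and 1 of 4 tested A-type ephrins, both higher. Of the B type, 0 of 2 tested receptors and 0 of 3 tested ephrins were called. Over the tested protein-coding genes 13.1% were called, and the difference was not tested. The log2 fold change was below 0 for 3 of the 5 A-type receptors and 1 of the 4 A-type ephrins.

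Semaphorins, the family with the most tested genes, held the largest number of called genes, with 3 higher and 1 lower among 12 tested. This is 33.3%, where 13.1% of the tested protein-coding genes were called, and the difference was not tested. Without a filter on low values, none of SEMA3B, SEMA4B, SEMA4F and SEMA5B was called. In that fit 792 of 29846 tested genes were called, as against 1655 of 15069 in the main fit. SEMA3B, SEMA4B and SEMA4F were also lost with plain variance moderation, which uses neither a variance trend nor robust estimation. That fit called 847 of 15069 genes. SEMA3B, a secreted class 3 semaphorin encoded in a region of chromosome 3 known for tumor suppressor genes (chr3:50267558-50277546), was at 2.23, 2.31 and 2.45 FPKM in the siC group, while the siMSI1 group gave 3.34, 3.60 and 4.02 FPKM. The log2 fold change was 0.62 (SE 0.108, adjusted p = 0.00583), and the call ended when any of the 6 libraries was left out, with adjusted p = 0.0133 to 0.0307 (limma). SEMA4B, a membrane-spanning semaphorin at chr15:90160604-90229679, was at 11.2, 11.2 and 11.7 FPKM in the siC libraries and 16.1, 15.6 and 20.2 FPKM in the siMSI1 libraries. Here siMSI1 replicate 3 stood highest, and the log2 fold change was 0.59 (SE 0.104, adjusted p = 0.00607). The call ended without siC replicate 1, 2 or 3 or siMSI1 replicate 1 or 2, with an adjusted p of up to 0.0290.

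SEMA5B, a membrane-spanning semaphorin with thrombospondin repeats, lies at chr3:122909082-123028605. It was at 5.16, 4.71 and 5.00 FPKM upon control siRNA, as against 7.74, 6.86 and 7.74 FPKM upon MSI1 depletion (log2 fold change 0.58, SE 0.0854, adjusted p = 0.00303, limma). The groups did not overlap, but the call ended without siC replicate 1, 2 or 3 or siMSI1 replicate 1 (adjusted p of up to 0.0154). Its close relative SEMA5A, named after its values were seen, stood just outside the threshold. SEMA5A was at 11.8, 11.6 and 10.1 FPKM in the siC group, while the siMSI1 group gave 8.32, 8.65 and 7.79 FPKM (log2 fold change -0.43, adjusted p = 0.0101, and past the threshold in 6 of the 16 alternative fits).

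SEMA4F, a membrane-spanning semaphorin at chr2:74654228-74683853, was the semaphorin that fell. Its level was 7.35, 7.42 and 7.59 FPKM in the siC libraries and 3.84, 4.42 and 5.17 FPKM in the siMSI1 libraries, or 60.0% of the siC mean. The siC libraries lay close together and all siMSI1 libraries lay below them (log2 fold change -0.73, SE 0.113, adjusted p = 0.00356, limma). The call ended without siC replicate 1, 2 or 3 or siMSI1 replicate 2, where the adjusted p reached 0.0182.

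The most abundant semaphorin, SEMA3A, a classical repellent that acts through NRP1, did not pass. It was at 17.8, 20.9 and 16.1 FPKM in the siC libraries and 21.1, 21.5 and 18.4 FPKM in the siMSI1 libraries, with overlapping groups (log2 fold change 0.16, 95% interval -0.10 to 0.41, adjusted p = 0.337). The membrane-spanning SEMA4C was at 9.91, 10.3 and 12.03 FPKM upon control siRNA, as against 11.4, 10.5 and 11.8 FPKM upon MSI1 depletion (log2 fold change 0.07, 95% interval -0.15 to 0.28, adjusted p = 0.645). The log2 fold changes of the 5 remaining tested semaphorins lay between -0.44 and 0.39, and none was called. SEMA7A, the known ligand of PLXNC1, was covered by at most 7 reads per library and was not tested.

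**Figure D3:**
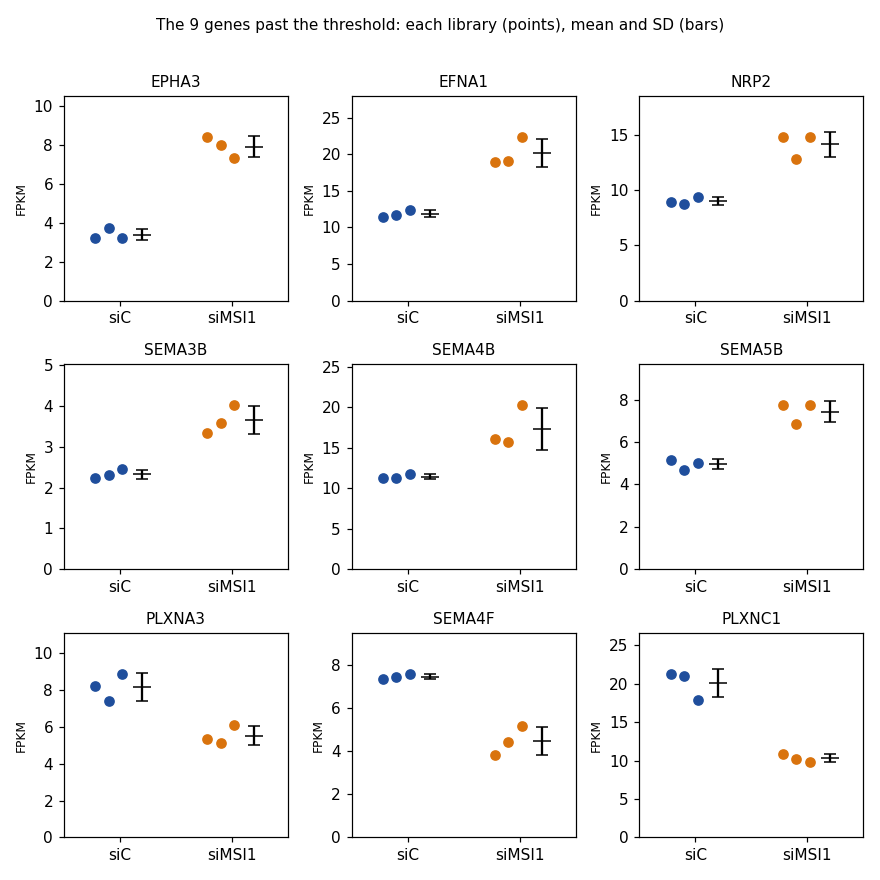
FPKM of the 9 genes past the threshold in each of the 3 siC libraries (blue) and 3 siMSI1 libraries (orange), with the mean and SD of each group as bars and each axis starting at 0. In every panel the groups are apart, for example EPHA3 (3.21 to 3.71 FPKM against 7.33 to 8.41 FPKM) and PLXNC1 (17.9 to 21.3 FPKM against 9.83 to 10.8 FPKM).

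Plexins transmit semaphorin signals through a GTPase-activating domain inside the cell. PLXNC1, at chr12:94148577-94307675, was at 21.3, 21.0 and 17.9 FPKM in the siC group, while the siMSI1 group gave 10.8, 10.2 and 9.83 FPKM. The groups were well apart, with 2551 to 3758 reads per siC library and 1327 to 1577 reads per siMSI1 library. The log2 fold change was -0.95 (SE 0.0862, adjusted p = 0.000506, limma), with an adjusted p of at most 0.00445 in the alternative fits. PLXNA3, a receptor that works with neuropilins, lies at chrX:154458281-154477779. It was at 8.22, 7.39 and 8.89 FPKM in the siC libraries and 5.32, 5.15 and 6.10 FPKM in the siMSI1 libraries (log2 fold change -0.55, SE 0.102, adjusted p = 0.00731). Its call ended without siC replicate 1, 2 or 3 or siMSI1 replicate 1 or 2 (adjusted p of up to 0.0343), and also with centring of each library on its median or quantile normalization. It ended as well without a filter on low values and with plain variance moderation (adjusted p = 0.0238 and 0.0198, limma).

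PLXND1, a plexin known from vascular patterning, was at 26.7, 22.9 and 26.0 FPKM upon control siRNA, as against 33.1, 31.2 and 40.1 FPKM upon MSI1 depletion. The groups did not overlap, yet the change of 0.46 (SE 0.107) did not pass (adjusted p = 0.0182). PLXNB2 was at 20.02, 18.3 and 21.7 FPKM in the siC group, while the siMSI1 group gave 22.5, 22.0 and 26.4 FPKM, again without overlap and without passing (log2 fold change 0.23, adjusted p = 0.114). Of the 8 tested plexins, 2 were lower, none was higher and 6 did not pass. Over the tested protein-coding genes 7.09% were called lower and 6.01% higher, and the difference was not tested. PLXNB2 and PLXND1 were higher at an unadjusted p under 0.05 by limma. PLXND1 alone passed as higher with voom, a limma fit on the recovered reads. The log2 fold changes of the 6 that did not pass lay between -0.36 and 0.46.

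NRP2, a co-receptor of class 3 semaphorins and of VEGF-C, lies at chr2:205681990-205798133. It was at 8.94, 8.71 and 9.37 FPKM in the siC libraries and 14.8, 12.8 and 14.8 FPKM in the siMSI1 libraries (log2 fold change 0.64, SE 0.0807, adjusted p = 0.00153, limma). All siMSI1 libraries lay above all siC libraries, and without siC replicate 1 the adjusted p was 0.0109. NRP1, the co-receptor of SEMA3A, was at 15.9, 15.7 and 14.1 FPKM upon control siRNA, as against 19.0, 18.5 and 17.4 FPKM upon MSI1 depletion. The log2 difference of 0.26 (SE 0.0749) separated the groups but did not pass (adjusted p = 0.0371). SEMA3F, the ligand for which NRP2 is best known, was covered by at most 5 reads per library and was not tested.

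Transcripts of Slits, secreted repellents, were present while those of their Robo receptors were low. SLIT2 was at 7.93, 7.68 and 7.69 FPKM in the siC group, while the siMSI1 group gave 6.22, 5.65 and 6.28 FPKM. These groups did not overlap, and the log2 fold change of -0.36 (SE 0.0765) lay just outside the threshold (adjusted p = 0.0134). SLIT3, named after its values were seen, was at 1.40, 1.21 and 1.15 FPKM in the siC libraries and 1.86, 1.59 and 2.29 FPKM in the siMSI1 libraries (log2 fold change 0.56, adjusted p = 0.0468). None of the 4 Robo receptors reached the filter. ROBO3, the highest of them, was at 0.466, 0.519 and 0.465 FPKM upon control siRNA, as against 0.483, 0.402 and 0.387 FPKM upon MSI1 depletion, from 37 to 66 reads. ROBO1, also named after its values were seen, had 48, 54 and 42 reads in siC and 30, 10 and 18 reads in siMSI1. In the fit without a filter on low values its log2 fold change was -0.79 (SE 0.314, adjusted p = 0.205, limma), which did not pass although its groups did not overlap.

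Netrin-1 (NTN1), a secreted cue that attracts through DCC and repels through UNC5 receptors, was at 18.3, 16.6 and 18.0 FPKM in the siC group, while the siMSI1 group gave 13.3, 14.7 and 15.3 FPKM. The siMSI1 libraries lay below the siC libraries, with a log2 fold change of -0.29 (SE 0.0786) that did not pass (adjusted p = 0.0318). DCC had no read. UNC5B was the 1 tested receptor of this group and was at 4.02, 3.39 and 3.73 FPKM in the siC libraries and 3.25, 3.16 and 3.52 FPKM in the siMSI1 libraries (log2 fold change -0.16, 95% interval -0.40 to 0.08, adjusted p = 0.303). UNC5A and UNC5D had at most 3 reads in every library and UNC5C at most 5. NTN5, named after its values were seen, had 4, 4 and 6 reads in siC and none in siMSI1, and did not pass in the fit without a filter (adjusted p = 0.0605).

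Set against all tested genes, the axon guidance genes had values on both sides of 0. The log2 fold change was above 0 for 21 and below 0 for 20 of the 41, and its median was 0.01 as against -0.0077 over the tested protein-coding genes. The median size of the change was 0.29, as against 0.21. In 24 of the 41 genes the groups did not overlap, 12 higher and 12 lower in siMSI1, where 48.4% of the tested protein-coding genes had groups that did not overlap. Just inside the threshold stood PLXNA3 and SEMA4B (adjusted p = 0.00731 and 0.00607), and just outside stood SEMA5A, SLIT2 and PLXND1 (adjusted p = 0.0101, 0.0134 and 0.0182).

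Summed over a family, the A-type ephrins went from 19.7 ± 0.995 FPKM (SD, n = 3) in siC to 28.2 ± 2.03 FPKM (SD, n = 3) in siMSI1, and EFNA1 made up 60.3% and 71.4% of these sums. The neuropilins went from 24.2 ± 0.718 to 32.4 ± 1.24 FPKM and the A-type Eph receptors from 16.3 ± 0.450 to 20.3 ± 0.698 FPKM (SD, n = 3 each), with siMSI1 libraries above siC libraries in both. The plexin sum was 89.7 ± 4.41 FPKM in siC and 88.8 ± 8.001 FPKM in siMSI1 (SD, n = 3 each), so the lower PLXNC1 and PLXNA3 and the higher values of PLXND1 and PLXNB2 left it within the spread of the libraries. PLXND1 made up 28.1% of the plexin sum in siC and 39.2% in siMSI1. The B-type receptors also overlapped between the groups (19.4 ± 1.39 and 20.1 ± 1.92 FPKM, SD, n = 3 each). The netrins went from 18.5 ± 0.896 to 15.2 ± 0.972 FPKM and the Slits from 9.06 ± 0.271 to 7.97 ± 0.680 FPKM (SD, n = 3 each). Semaphorins went from 85.4 ± 2.78 to 90.7 ± 0.187 FPKM and B-type ephrins from 69.1 ± 0.715 to 64.4 ± 1.80 FPKM (SD, n = 3 each). All siMSI1 libraries lay above the siC libraries in the semaphorin sum and below them in the B-type ephrin sum. Single genes weighed in these sums. EPHA3 went from a mean of 3.38 to 7.91 FPKM, while 3 of the 5 tested A-type receptors had a log2 fold change below 0. SEMA4B went from a mean of 11.4 to 17.3 FPKM, and 4 of the 12 tested semaphorins were below 0 and 8 above. The family sums were not tested.

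**Figure D4:**
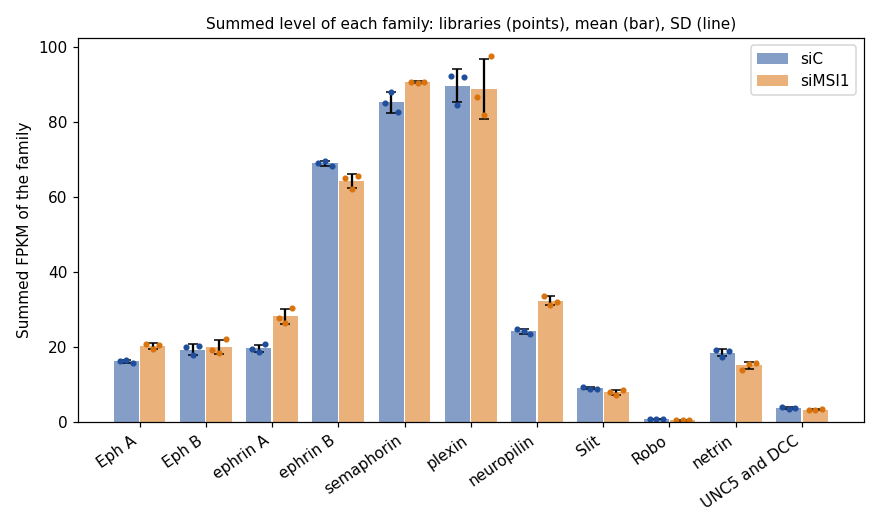
Summed FPKM of each family (bars, mean of 3 libraries, lines, SD, points, libraries) in siC (blue) and siMSI1 (orange). The sums of the A-type ephrins, A-type Eph receptors, neuropilins and semaphorins stand higher in siMSI1, and those of the B-type ephrins, netrins and Slits stand lower. The plexins overlap at 89.7 and 88.8 FPKM, and the Robo receptors stay under 1 FPKM in both groups.

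Inside the cell, guidance receptors act on Src family kinases, adaptor proteins, collapsin response mediator proteins (the DPYSL family) and regulators of actin. In a list of 50 such signalling genes, 45 were tested, 8 fell and none rose (17.8% called, by limma), and 37 did not pass. Among the tested protein-coding genes 13.1% were called and 7.09% were called lower. MICAL2 and NGEF were higher at an unadjusted p under 0.05, and MICAL2 alone passed as higher with voom and with plain variance moderation, a limma fit with neither a variance trend nor robust estimation. The largest falls were those of CDC42, a GTPase that drives filopodia, and DPYSL4. CDC42 was at 45.5, 46.9 and 44.1 FPKM upon control siRNA, as against 16.3, 18.6 and 17.1 FPKM upon MSI1 depletion, or 38.0% of the siC mean (log2 fold change -1.39, SE 0.0706, adjusted p = 0.000129, limma). DPYSL4 was at 15.9, 15.2 and 17.7 FPKM in the siC group, while the siMSI1 group gave 5.79, 6.34 and 6.45 FPKM (log2 fold change -1.38, adjusted p = 0.000206). In both genes the groups were far apart.

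FYN, a Src family kinase that acts in semaphorin and netrin signalling, fell by 0.91 on the log2 scale (27.6 to 14.7 FPKM), and the adaptor NCK2 fell by 0.81 (13.7 to 7.74 FPKM). DPYSL3, the most abundant of the called signalling genes, was at 298, 284 and 294 FPKM in the siC libraries and 165, 169 and 179 FPKM in the siMSI1 libraries (log2 fold change -0.77, adjusted p = 0.000366). RND1, a GTPase that binds plexins, fell by 1.12 (3.86 to 1.72 FPKM), DPYSL5 fell by 0.57 (28.4 to 19.2 FPKM) and LIMK2, a kinase upstream of cofilin, fell by 0.36 (59.5 to 46.2 FPKM). CDC42, DPYSL4, FYN, DPYSL3 and NCK2 passed in each of the 16 alternative fits. RND1 did not pass without siC replicate 1 (adjusted p = 0.0125), and DPYSL5 and LIMK2 did not pass without siC replicate 1, 2 or 3 or siMSI1 replicate 1 or 2 (adjusted p of up to 0.0280 and 0.0344). The count of 8 became 5 without siC replicate 1, which moved it by over 1.5 times. Calls over all tested genes went from 1655 to 517 in that fit. DPYSL2 and CRMP1, of the same family as DPYSL3, were not called, with log2 fold changes of -0.12 and -0.03. The median over the list was -0.16, with 35 of 45 genes below 0.

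**Figure D5:**
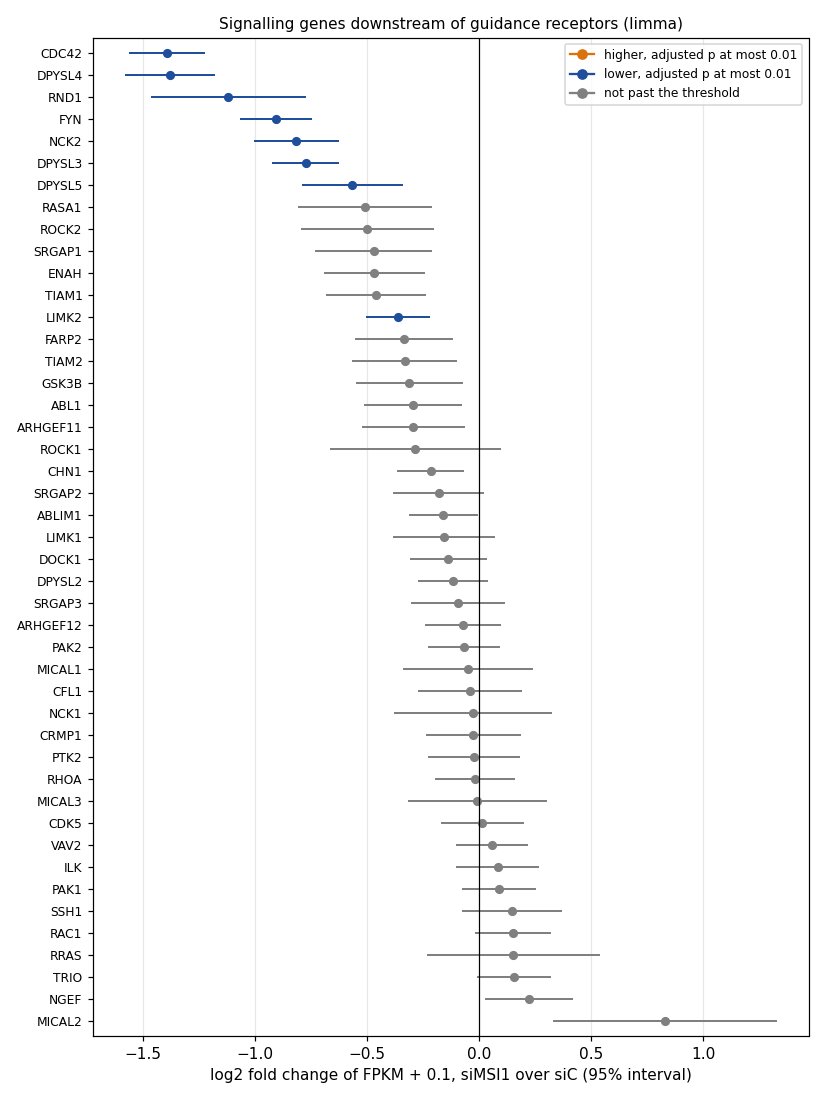
Log2 fold change of FPKM + 0.1 (siMSI1 over siC, limma) with its 95% interval for the 45 tested signalling genes, ordered by size. The 8 genes past the threshold (blue) are all lower, from -1.39 for CDC42 to -0.36 for LIMK2, and MICAL2 at 0.83 has the highest value among those that did not pass (grey).

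In a list of 17 further guidance cues, receptors and adhesion partners, 9 were tested, 3 fell and none rose, and 0 were higher at an unadjusted p under 0.05 by limma or past the threshold with voom. The share of tested protein-coding genes called lower was 7.09%. RTN4, which encodes the neurite inhibitor Nogo, went from 187 ± 3.43 to 145 ± 5.40 FPKM (SD, n = 3 each, log2 fold change -0.37, adjusted p = 0.00481, limma). The neural adhesion molecules NRCAM and CHL1, which associate with neuropilins, went from 19.1 to 14.0 FPKM and from 14.2 to 10.4 FPKM, with a log2 fold change of -0.45 each (adjusted p = 0.00822 and 0.00998). The calls of NRCAM and CHL1 ended when any of the 6 libraries was left out (adjusted p of up to 0.0387 and 0.0467) and that of RTN4 without siC replicate 1, 2 or 3 or siMSI1 replicate 1 or 2 (up to 0.0354), so the count of 3 became 0 without each of these 5 libraries and 1 without siMSI1 replicate 3. Over all tested genes 1655 were called in the main fit, 517 to 885 without each of these 5 libraries and 1603 without siMSI1 replicate 3. Neogenin (NEO1), a netrin receptor related to DCC, was at 0.629 FPKM in siC and 0.627 FPKM in siMSI1.

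Markers of other cell states moved in the same libraries. Of 11 proliferation genes 10 were lower in siMSI1, and their sum was 729 to 753 FPKM in siC and 545 to 560 FPKM in siMSI1. This count became 2 without siC replicate 1, 4 without siC replicate 2, 5 without siC replicate 3, 3 without siMSI1 replicate 1 and 3 without siMSI1 replicate 2, and 6 with median centring of the libraries. It was 4 without a filter on low values and 3 with plain variance moderation. Of all tested genes 1655 were called in the main fit and 517 to 885 without the libraries named above, left out in turn. With median centring 1548 were called, without the filter 792 and with plain variance moderation 847. In the main fit 7.09% of the tested protein-coding genes were called lower. GFAP, an astrocyte marker, rose from 1.63 to 4.61 FPKM (log2 fold change 1.46, adjusted p = 0.000905) and the radial glia marker FABP7 fell from 36.1 to 16.6 FPKM (log2 fold change -1.12, adjusted p = 0.000274). The sum of the 8 glioma and neural progenitor markers was 1423 to 1485 FPKM in siC and 1186 to 1285 FPKM in siMSI1. Of 10 neuron markers, 4 were tested and SYP alone was called (log2 fold change -0.53, adjusted p = 0.00433, lost without siC replicate 1, 2 or 3 or siMSI1 replicate 1). Their sum was 142 to 148 FPKM in siC and 156 to 175 FPKM in siMSI1, of which GAP43, named here after its values were seen, held 123 and 148 FPKM on average (log2 fold change 0.27, adjusted p = 0.0256), while MAP2 was at 7.62 and 5.63 FPKM. RBFOX3 was at no read and DCX at no more than 3 reads. The 4 epithelial markers summed to 22.3 to 26.0 FPKM in siC and 19.1 to 23.1 FPKM in siMSI1, and none was called. The part of these markers in the changes of the guidance genes was not tested.

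The strand setting of the counting is not given in the sources used here, so genes that overlap a called gene were examined. Of the 9 called genes, 5 overlap another gene of the table, 10 genes in all, of which 5 were tested and 0 were called by limma, with 1, LAGE3, at an unadjusted p under 0.05 and also past the threshold with voom. LAGE3 was the most expressed of them, on the opposite strand at PLXNA3, with a mean of 35.4 FPKM from up to 618 reads and a log2 fold change of 0.50 (adjusted p = 0.0118), the reverse of the direction of PLXNA3. For CEP83, on the opposite strand at PLXNC1, it was 0.01 (adjusted p = 0.985).

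The study also examined miR-27b-3p and miR-143-3p as miRNAs of KNS42 cells, so their sites in the guidance genes are shown. The mature sequences are those of RefSeq, with the seed (bases 2 to 8) in capitals, from chr9:95085505-95085525 and chr5:149428978-149428998 of GRCh38, both on the plus strand.
hsa-miR-27b-3p: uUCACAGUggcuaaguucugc
hsa-miR-143-3p: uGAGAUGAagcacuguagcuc
A site was a stretch of the canonical 3′UTR (GENCODE release 44 on GRCh38) that pairs with bases 2 to 8, or with bases 2 to 7 followed by A, which is ACUGUGA or CUGUGAA for miR-27b-3p and UCAUCUC or CAUCUCA for miR-143-3p, on the transcribed strand and with overlapping matches joined. Of the 41 tested guidance genes, 18 held a site of miR-27b-3p and 11 a site of miR-143-3p, where 30.01% and 24.02% of 11259 tested protein-coding genes held them. The tested genes with a miR-27b-3p site had a median log2 fold change of -0.13 (11 of 18 below 0) and those without of 0.10 (9 of 23 below 0). Over all tested protein-coding genes these medians were -0.0177 and -0.0043. For miR-143-3p the medians of the guidance genes were -0.10 (7 of 11 below 0) with and 0.09 (13 of 30 below 0) without a site, and -0.0234 and -0.0040 over all. Genes with sites also had longer 3′UTRs, with a median of 3065.5 bases as against 1485 bases for miR-27b-3p among the guidance genes. For miR-143-3p these medians were 3587 and 1382 bases. The differences between genes with and without a site were not tested.

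Of the 9 called genes, 4 held a miR-27b-3p site and 2 a miR-143-3p site. SEMA4F, which fell, and NRP2, which rose, held both, and their sites are shown (capitals) because genes of opposite direction carried sites of the same miRNAs.
SEMA4F, miR-143-3p, chr2:74680712-74680718: gagaucuucccCAUCUCAguuuuccuucc
SEMA4F, miR-27b-3p, chr2:74681749-74681755: cuggucuuggcCUGUGAAugugccucguu
SEMA4F, miR-27b-3p, chr2:74681856-74681862: uuggcagcagcCUGUGAAcuacucaaaag
NRP2, miR-143-3p, chr2:205795320-205795326: aaaacaggagcUCAUCUCuuuggggucac
NRP2, miR-27b-3p, chr2:205798025-205798031: ugagagcuuuuACUGUGAuucuucaaugu
All lie in the 3′UTR on the plus strand, which is 3632 bases long in SEMA4F and 3073 bases in NRP2. SEMA3B and SEMA4B, both higher, each held 1 site of miR-27b-3p. EPHA3, EFNA1 and PLXNC1 held neither. These are matches of letters, and no binding of a miRNA was measured in these libraries.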

How the data were processed

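Poly(A)-enriched, strand-specific libraries of KNS42 cells (3 siC, 3 siMSI1) were sequenced with 150 base reads. Per the submitters' processing notes and the study's methods, the authors clipped reads with Cutadapt 1.14, aligned them to GRCh38 with HISAT2 2.1.0 (SAMtools 1.5), counted them per gene on an Ensembl annotation with featureCounts 1.5.3, and deposited FPKM per gene and library in 1 table. Multimapping and strand settings are not given in the sources used here. The table also holds the authors' own edgeR 3.18.1 comparison (log fold changes, p-values and false discovery rates), which was not used. There were 0 columns of other samples.

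Reads were recovered from the deposited FPKM by multiplying with gene length and dividing by what 1 read is worth, and were whole (within 0.01) for 100% of values above 0 in each library. FPKM values were kept as deposited, and limma 3.58.1 (R 4.3.3; lmFit, then eBayes with trend and robust, two-sided, no block) was fitted to log2-transformed FPKM + 0.1 for 15069 genes (mean of at least 0.5 FPKM), with Benjamini-Hochberg adjustment and the study's threshold of 0.01. The test was also run on simulated reads that had the same added spread in every gene. Real genes differ in spread, so that run does not give the error rate in these libraries. In a gene of 2 kb, 3 reads are worth between 0.0829 and 0.114 FPKM, a floor for counting error only.

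Named were all members past the threshold, the most abundant member of each family and members with a mean of at least 10 FPKM. Called genes of the lists and MSI1 were named as well. Further genes were named outside this rule, and only some of them are marked as named after their values were seen. The members and lists were chosen with earlier results of these data known. Alternatives were 2 other added values (0.01 and 1), other filters, normalizations and moderation, limma's voom on the recovered reads, the replicate number as a block, an adjusted p of 0.05 and leaving out each library. Groups and replicate numbers came from the labels. Positions and 3′UTRs came from GENCODE release 44, promoters and miRNAs from RefSeq (GRCh38.p14), with Python 3.11.15, numpy 2.4.6, pandas 2.3.3 and matplotlib 3.10.9. No protein sequences were used here.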

Additional observations from a re-analysis of the deposited data

How the results depend on the processing

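Of 357 values for the 21 named and tested guidance genes under 17 settings, 307 kept their direction and their side of the threshold, 36 no longer passed, 14 newly passed and 0 turned direction. MSI1 passed in each of the 16 alternative fits. With other added values, a mean of at least 1 FPKM, median centring or quantile normalization, 8 to 10 guidance genes passed. In these fits 1548 to 1851 of all tested genes passed, as against 1655 in the main fit. Without a filter on low values the count was 4 (1 lower, 3 higher), with 1 further guidance gene. More genes were then tested (29846), and 792 of them passed. With plain variance moderation it was 5 (1 lower, 4 higher), with 0 further guidance genes, and the cause was not tested. Of all 15069 tested genes 847 passed with that moderation. With voom on the recovered reads 15 guidance genes (7 lower) and 15 signalling genes passed, and 2855 of all genes (23.2% of the tested protein-coding genes). At an adjusted p of 0.05 these were 16 (7 lower) and 17, by the looser threshold, which 28.7% of the tested protein-coding genes passed. Leaving out each library in turn gave 3 to 9 guidance genes (1 to 4 lower, 2 to 5 higher), 5 to 9 signalling genes and 0 to 1 further guidance genes, with fewer samples in each fit. Of all tested genes 517 to 1603 then passed, as against 1655 in the main fit.

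The replicate numbers were not shown to pair the libraries: libraries of the same number had correlations of -0.0661, 0.0783 and 0.0830 of their deviations from the group means, and siC replicate 1 correlated best with siMSI1 replicate 3 (0.0590). With the replicate block 11 guidance genes passed (4 lower, 7 higher) and 11 signalling genes, as against 17.7% of the tested protein-coding genes, and PLXND1 and SEMA5A joined the 9 (adjusted p = 0.00654 and 0.00422). With voom and the replicate block 23 (12 lower, 11 higher) and 22 signalling genes (20 lower, 2 higher) passed, as against 41.2% of the tested protein-coding genes. Median centring shifted the median of all genes by 0.0123 on the log2 scale, the largest shift of these scalings. The filter on mean FPKM left the 28 guidance genes under it without a test in the main fit. The 3 libraries per group limit the size of change that can be called.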
